A study of Mus musculus with 6 samples.

Results

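The granule proteases that mark mast cells and basophils were followed in RUNX1-ETO9a (RE9a) mouse leukemia cells with and without *Phf6*, which encodes a PHD finger chromatin protein. The 9 genes *Cpa3*, *Tpsab1*, *Tpsb2*, *Tpsg1*, *Cma1*, *Mcpt1*, *Mcpt2*, *Mcpt4* and *Mcpt8* were taken by their gene symbols from the 54532 genes of the deposited table, and all 9 had enough counts to be tested. GFP+ leukemia cells had been sorted from bone marrow of mice termed *WT Phf6,RE9a* (*Phf6* intact) or *VC Phf6,RE9a* (*Phf6* deleted), and their RNA was sequenced in 3 libraries per group (replicates 1, 2 and 3 against 11, 12 and 13). Both groups arose from lineage-negative fetal liver cells with a floxed *Phf6* allele on the X chromosome (*Phf6 fl/y*) that received RE9a together with GFP from a retrovirus. GFP+ cells were then transplanted serially into male recipient mice, so the group names refer to the transplanted cells, whose donors were fetal. The *VC Phf6,RE9a* cells also carried Vav1-Cre, which is active throughout the blood system and not in one lineage, so the deletion was not made in mast cells or basophils alone. The study's methods describe the animals as young adult males and give no strain, and the sources used here do not tie each library to a leukemia of its own, so p-values measure only the spread between these libraries, which may be technical.

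Mast cells and basophils store proteases in granules, bound to the proteoglycan serglycin, and release them when IgE receptors are cross-linked. *Cpa3* encodes carboxypeptidase A3, which removes amino acids from the C-terminal end of peptides. The tryptases (*Tpsab1*, *Tpsb2* and the membrane-anchored product of *Tpsg1*) cut after basic residues, and the chymase family (*Cma1*, *Mcpt1*, *Mcpt2*, *Mcpt4*) is encoded in one cluster together with *Mcpt8*, cathepsin G and the granzymes. Among these, *Cma1*, *Mcpt4*, *Tpsb2* and *Cpa3* are known from connective tissue mast cells of the mouse, *Mcpt1* and *Mcpt2* from mucosal mast cells, and *Mcpt8* from basophils.

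The genes lay at 3 loci of GRCm38. *Cpa3* was on chr3:20215620-20242181, the tryptase genes spanned 31.2 kb of chromosome 17 (*Tpsab1* at chr17:25343245-25345562, *Tpsb2* at chr17:25366550-25368094, *Tpsg1* at chr17:25369273-25374442), and the other 5 spanned 144 kb of chromosome 14. Along chromosome 14 the order was *Cma1* (chr14:55941451-55944675), *Mcpt1* (chr14:56017971-56020384), *Mcpt2* (chr14:56042041-56044642), *Mcpt4* (chr14:56059629-56062313) and *Mcpt8* (chr14:56082166-56085273). *Mcpt2* and *Mcpt4* were thus neighbours, with 15.0 kb between them.

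The sequences just before the start sites are shown because *Mcpt1* and *Mcpt4*, whose promoters are closely related, gave different results. RefSeq (GRCm38.p6) windows were found for 6 of the 9 genes, and none for *Tpsab1*, *Tpsb2* and *Mcpt2*. Each window below holds the 250 bases before the start, 5′ to 3′ on the strand of the gene. Capitals mark a GATA motif (the letters AGATAA, the variant AGATAG, and the same with T first, TGATAA as well as TGATAG) or the RUNX motif TGTGGT on either strand, so that a motif on the opposite strand reads as its reverse complement.
Cpa3 (chr3:20242182-20242431, minus strand): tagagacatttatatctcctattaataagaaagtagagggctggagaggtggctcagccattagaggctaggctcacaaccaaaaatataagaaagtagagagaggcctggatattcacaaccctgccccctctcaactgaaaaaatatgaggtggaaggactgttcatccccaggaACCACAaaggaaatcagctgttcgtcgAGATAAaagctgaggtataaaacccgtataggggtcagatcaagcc
Cma1 (chr14:55944676-55944925, minus strand): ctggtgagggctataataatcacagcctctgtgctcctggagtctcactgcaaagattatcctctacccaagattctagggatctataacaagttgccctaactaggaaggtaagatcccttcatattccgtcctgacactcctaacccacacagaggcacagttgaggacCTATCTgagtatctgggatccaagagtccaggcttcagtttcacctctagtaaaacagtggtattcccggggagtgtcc
Mcpt1 (chr14:56017714-56017963, plus strand): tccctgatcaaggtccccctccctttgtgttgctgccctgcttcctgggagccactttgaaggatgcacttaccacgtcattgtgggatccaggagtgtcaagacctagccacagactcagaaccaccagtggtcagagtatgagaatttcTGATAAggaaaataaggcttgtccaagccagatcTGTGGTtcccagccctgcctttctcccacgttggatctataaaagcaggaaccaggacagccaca
Mcpt4 (chr14:56062311-56062560, minus strand): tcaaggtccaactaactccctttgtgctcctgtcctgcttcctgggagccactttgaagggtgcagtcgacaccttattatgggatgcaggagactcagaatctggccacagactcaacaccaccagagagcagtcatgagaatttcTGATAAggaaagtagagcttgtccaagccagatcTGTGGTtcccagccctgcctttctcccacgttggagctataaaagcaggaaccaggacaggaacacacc
Mcpt8 (chr14:56085198-56085447, minus strand): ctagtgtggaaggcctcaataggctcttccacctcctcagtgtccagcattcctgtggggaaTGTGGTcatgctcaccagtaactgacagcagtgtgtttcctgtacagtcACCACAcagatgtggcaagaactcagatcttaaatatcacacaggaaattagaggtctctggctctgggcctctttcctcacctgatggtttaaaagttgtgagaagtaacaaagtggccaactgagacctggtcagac
The windows of *Mcpt1* and *Mcpt4* were identical at 84.6% of 247 aligned bases. Each held the GATA motif TGATAA (-99 to -94 in *Mcpt1*, -103 to -98 in *Mcpt4*, counted from the start site) followed by TGTGGT (-65 to -60 and -69 to -64). *Cpa3* held AGATAA at -46 to -41, *Cma1* held AGATAG on the opposite strand at -79 to -74, and the *Mcpt8* window held no GATA motif and 2 RUNX motifs. *Tpsg1* has more than one RefSeq start, and its windows are not printed here. The window of its outer start held TGATAA at -93 to -88 and no RUNX motif. That of its other start held 3 RUNX motifs and no GATA motif. Of these 7 windows, 5 held a GATA motif and 5 the RUNX motif. Of 32817 mouse windows of the same length, 26.6% held one of the GATA motifs and 14.04% the RUNX motif, so neither is particular to proteases. The 7 windows include the related ones of *Mcpt1* and *Mcpt4* and more than one of *Tpsg1*. Enrichment was not tested. The E-box motifs CATGTG, read in MITF sites, and its palindromic form CACGTG, together found in 17.6% of all windows, were in none of those of the proteases. These matches describe letters and do not show binding.

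Total counts ran from 15675358 to 16817994 per library, and a level of 3 counts, which a count of 0 allows, came to 0.178 to 0.191 CPM (counts scaled to a fixed library size). These limits cover counting error only. The targeted gene *Phf6* had 1044, 827 and 1142 counts in *WT Phf6,RE9a* and 388, 314 and 331 in *VC Phf6,RE9a* libraries, a log2 fold change of -1.66 (standard error 0.13, edgeR adjusted p = 9.32e-05). Reads of *Phf6* thus remained in *VC Phf6,RE9a* libraries, and counts over the whole gene do not show how complete the deletion was. The mast cell genes *Hdc* and *Il1rl1*, the highest of their list, were read at high levels in both groups. Their means were lower in *VC Phf6,RE9a* libraries, and of 14 tested mast cell markers 11 were lower and 1 was higher. The erythroid, eosinophil and B cell markers given further below were higher in *VC Phf6,RE9a* libraries.

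In *VC Phf6,RE9a* cells 7 of the 9 proteases were lower and 0 were higher by edgeR's quasi-likelihood test at an adjusted p under 0.05, and *Mcpt1* and *Mcpt2* did not pass. At an unadjusted p under 0.05, and by DESeq2 or limma, 0 of them were higher as well. Of all 14169 genes tested, 22.7% were called lower and 21.5% higher. The median log2 fold change of the 9 genes was -4.62, against 0.01 over all genes tested. The same 7 genes had every *VC Phf6,RE9a* library under every *WT Phf6,RE9a* library, which held for 28.4% of all genes tested. In bulk RNA, fewer cells of a type and less RNA per cell cannot be told apart.

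**Figure D1:**
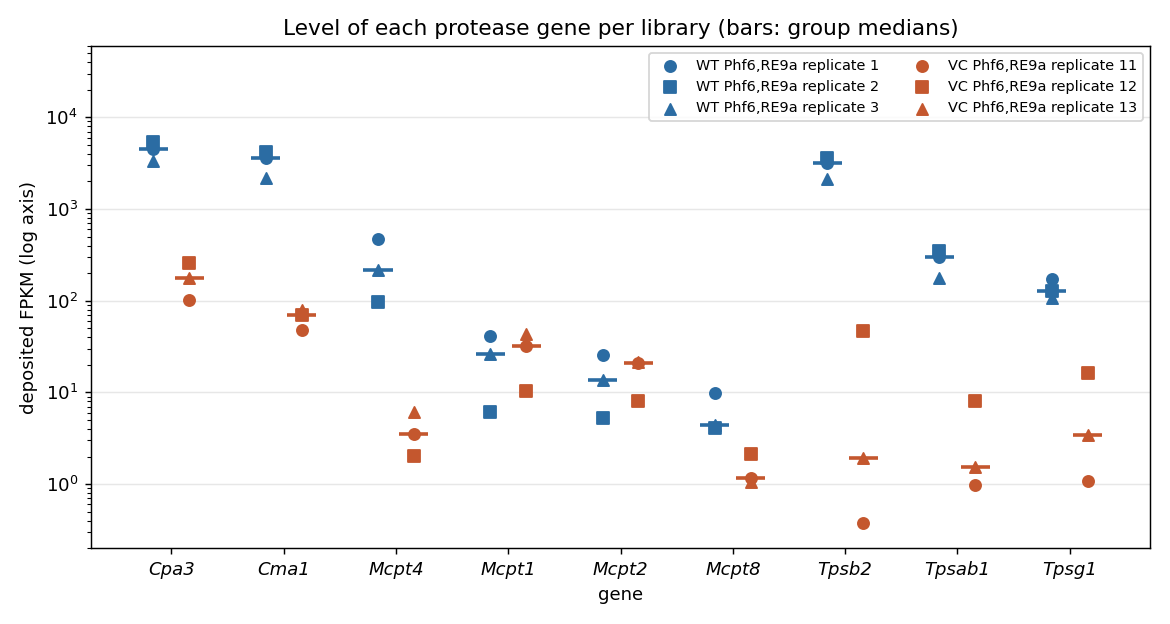
Deposited FPKM (fragments scaled by gene length and depth, log axis) of each protease gene in each library, with *WT Phf6,RE9a* libraries in blue, *VC Phf6,RE9a* libraries in orange and bars at the group medians. The groups are apart for 7 genes and overlap for *Mcpt1* and *Mcpt2*; *Tpsb2* in *VC Phf6,RE9a* cells spans 0.377 to 46.8.

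The carboxypeptidase gene *Cpa3* had the highest level of the 9 genes in both groups. It had 106070, 120607 and 85568 counts in *WT Phf6,RE9a* libraries, against 2671, 6701 and 4608 in those of *VC Phf6,RE9a*. All 3 *VC Phf6,RE9a* libraries were far below the lowest *WT Phf6,RE9a* library. *Cpa3* averaged 6749 ± 1507 CPM with *Phf6* intact and 274 ± 116 CPM with it deleted (SD, n = 3), which is 24.6-fold lower (log2 fold change -4.62, standard error 0.37, edgeR adjusted p = 0.000103). By mean FPKM, a length-scaled level, *Cpa3* ranked 2 among all genes of the table with *Phf6* intact and 215 with *Phf6* deleted. The microRNA gene *Mir7007* lies in an intron of *Cpa3* on the same strand, directly beside an exon, so reads counted for it (log2 fold change -3.90) cannot be told apart from those of unspliced *Cpa3* RNA.

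Among the tryptases, *Tpsb2* had the largest fold difference and the widest spread. *Tpsb2* had 52483, 58199 and 38085 counts in *WT Phf6,RE9a* libraries and 7, 874 and 36 in *VC Phf6,RE9a* libraries. Replicate 12 thus kept most of the *Tpsb2* reads of its group, and the highest library was 123 times the lowest in CPM. *Tpsb2* averaged 3220 ± 838 CPM with *Phf6* intact and 17.8 ± 28.7 CPM with it deleted (SD, n = 3; log2 fold change -7.49, standard error 1.46, edgeR adjusted p = 0.00485). Without *VC Phf6,RE9a* replicate 12 the log2 fold change was -11.29, and with any library left out *Tpsb2* stayed past the threshold.

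*Tpsab1*, the soluble tryptase gene next to it, had 9721, 10758 and 6122 counts against 35, 292 and 55. Replicate 12 was again the highest of its group, and no library of one group reached the other. *Tpsab1* averaged 577 ± 186 CPM with *Phf6* intact and 7.45 ± 8.30 CPM with it deleted (SD, n = 3), 77.2-fold lower (log2 fold change -6.27, standard error 0.76, edgeR adjusted p = 0.000579), and the log2 fold change was -7.75 without replicate 12.

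*Tpsg1*, the membrane-anchored tryptase gene, had 3664, 2614 and 2487 counts against 26, 392 and 81. It followed the other tryptases in that replicate 12 was highest and replicate 11 lowest. *Tpsg1* averaged 189 ± 44.7 CPM with *Phf6* intact and 9.73 ± 11.5 CPM with it deleted (SD, n = 3), 19.3-fold lower (log2 fold change -4.27, standard error 0.77, edgeR adjusted p = 0.00349), and the log2 fold change was -5.89 without replicate 12. Its 3′ end overlaps the calcium channel gene *Cacna1h* on the opposite strand by 158 bases, and 7.60% of its 50-base stretches also occur in *Cacna1h* transcripts. *Cacna1h* had 3408, 3451 and 1979 counts against 42, 458 and 113, with replicate 12 highest as well (log2 fold change -4.00, standard error 0.73, edgeR adjusted p = 0.00378). Since the sources used here do not say whether counting used strand, reads in the overlap cannot be assigned to one of these genes.

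The α-chymase gene *Cma1* had the smallest standard error of the 9 genes. *WT Phf6,RE9a* libraries held 60026, 67340 and 40116 of its counts and *VC Phf6,RE9a* libraries 903, 1321 and 1476. The *VC Phf6,RE9a* libraries lay close to each other, without the high replicate 12 seen for the tryptases. *Cma1* averaged 3631 ± 1095 CPM with *Phf6* intact and 72.7 ± 17.6 CPM with it deleted (SD, n = 3) (log2 fold change -5.64, standard error 0.32, edgeR adjusted p = 3.23e-05). The predicted gene *Gm48934* shares 5.38% of the 50-base stretches of *Cma1*.

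The β-chymase gene *Mcpt4* was also lower, from a *WT Phf6,RE9a* level that differed several-fold between libraries. *Mcpt4* had 7942, 1579 and 4001 counts in *WT Phf6,RE9a* libraries and 67, 39 and 116 in *VC Phf6,RE9a* libraries. Replicate 1 was highest and replicate 2 lowest, and the groups did not overlap. *Mcpt4* averaged 288 ± 208 CPM with *Phf6* intact and 4.37 ± 2.34 CPM with it deleted (SD, n = 3), 65.9-fold lower (log2 fold change -6.04, standard error 0.68, edgeR adjusted p = 0.000432), and the log2 fold change was -5.33 without *WT Phf6,RE9a* replicate 1. *Cma2*, a chymase paralog, shares 5.48% of the 50-base stretches of *Mcpt4*.

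The mucosal mast cell protease genes *Mcpt1* and *Mcpt2* gave overlapping values. *Mcpt1* had 643, 92 and 445 counts in *WT Phf6,RE9a* and 565, 180 and 748 in *VC Phf6,RE9a* libraries. Its level was 25.0 ± 17.8 against 29.4 ± 17.3 CPM (SD, n = 3; log2 fold change 0.23, standard error 0.67, edgeR adjusted p = 0.804). Within each group *Mcpt1* varied more than the group means differed, and its sign turned when 1 library was left out (-0.23 without *WT Phf6,RE9a* replicate 2, -0.19 without *VC Phf6,RE9a* replicate 13).

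*Mcpt2* had 416, 83 and 245 counts against 378, 148 and 387. The lowest libraries were replicate 2 and replicate 12, as for *Mcpt1*. Its level was 15.8 ± 10.7 against 18.0 ± 8.11 CPM (SD, n = 3; log2 fold change 0.18, standard error 0.55, edgeR adjusted p = 0.814), and its sign turned without the same libraries (-0.23 and -0.04). A p-value that misses the threshold does not show that the levels were equal.

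*Mcpt8*, the basophil granule protease gene, was the least abundant of the 9 genes in both groups. It had 151, 61 and 74 counts in *WT Phf6,RE9a* libraries, against 20, 37 and 18 in those of *VC Phf6,RE9a*. The groups did not overlap, but the lowest *WT Phf6,RE9a* and the highest *VC Phf6,RE9a* library were close. *Mcpt8* averaged 6.14 ± 3.18 CPM with *Phf6* intact and 1.47 ± 0.598 CPM with it deleted (SD, n = 3), 4.16-fold lower (log2 fold change -2.06, standard error 0.45, edgeR adjusted p = 0.00811), which was the smallest difference among the 7 lower genes.

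**Figure D2:**
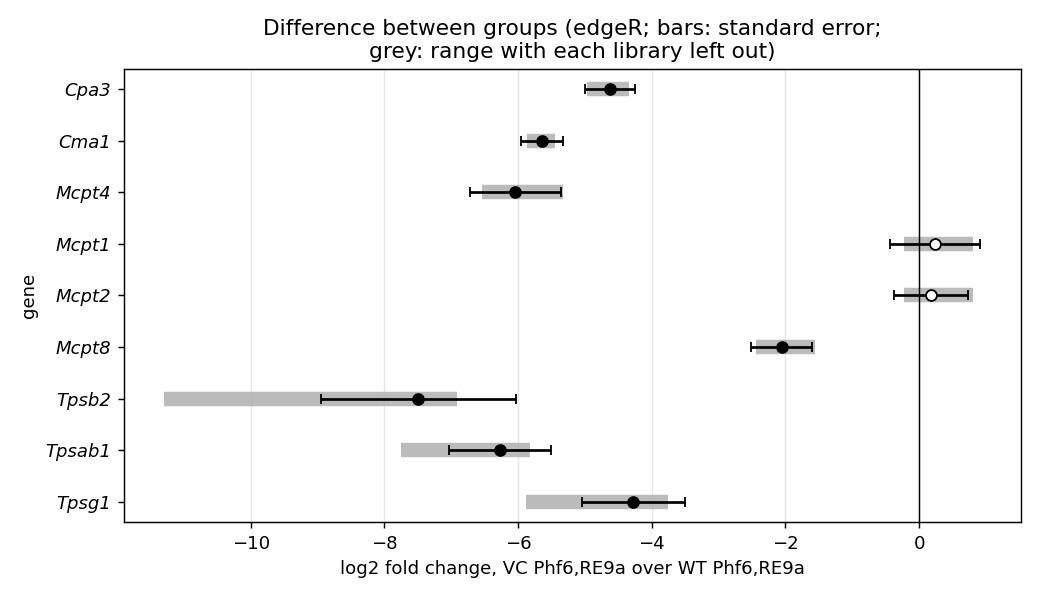
Log2 fold change of each protease gene, *VC Phf6,RE9a* over *WT Phf6,RE9a*, from edgeR with its standard error; filled points passed an adjusted p of 0.05 and grey bars span the values with each library left out. The other 7 genes lie left of 0 throughout, and the grey bars of *Mcpt1* and *Mcpt2* cross 0.

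The order of the length-scaled levels also differed between the groups. In *WT Phf6,RE9a* cells the median FPKM was 4539 for *Cpa3*, 3575 for *Cma1* and 3151 for *Tpsb2*, and the ranges of these 3 genes overlapped. *Tpsab1* (301), *Mcpt4* (216) and *Tpsg1* (127) came below them. The range of *Mcpt4* overlapped those of *Tpsab1* and *Tpsg1*, which did not overlap each other. *Mcpt1* (26.3), *Mcpt2* (13.8) and *Mcpt8* (4.44) followed, with ranges that overlapped. In *VC Phf6,RE9a* cells *Cpa3* (177) and *Cma1* (70.1) were still highest and did not overlap each other or the rest. *Mcpt1* (32.5) and *Mcpt2* (20.8) then came next by median, above *Mcpt4* (3.52), *Tpsg1* (3.40), *Tpsb2* (1.94), *Tpsab1* (1.53) and *Mcpt8* (1.17), although *Tpsb2* in replicate 12 reached 46.8.

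The 9 genes together took 1.43%, 1.67% and 1.06% of all counts in *WT Phf6,RE9a* libraries. In *VC Phf6,RE9a* libraries they took 0.0286%, 0.0620% and 0.0469%. The groups were far apart, with a mean share of 1.39 ± 0.306% against 0.0459 ± 0.0167% (SD, n = 3; log2 difference -4.96, exact two-sided permutation test over libraries p = 0.1, the smallest p that 3 against 3 allows). Within the protease counts, *Mcpt1* and *Mcpt2* together made up 0.439%, 0.0670% and 0.390% in *WT Phf6,RE9a* and 20.2%, 3.29% and 15.1% in *VC Phf6,RE9a* libraries. The 3 tryptases made up 27.3%, 27.4% and 26.4% against 1.46%, 15.6% and 2.29%, so replicate 12 differed from the other libraries of its group in both respects.

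**Figure D3:**
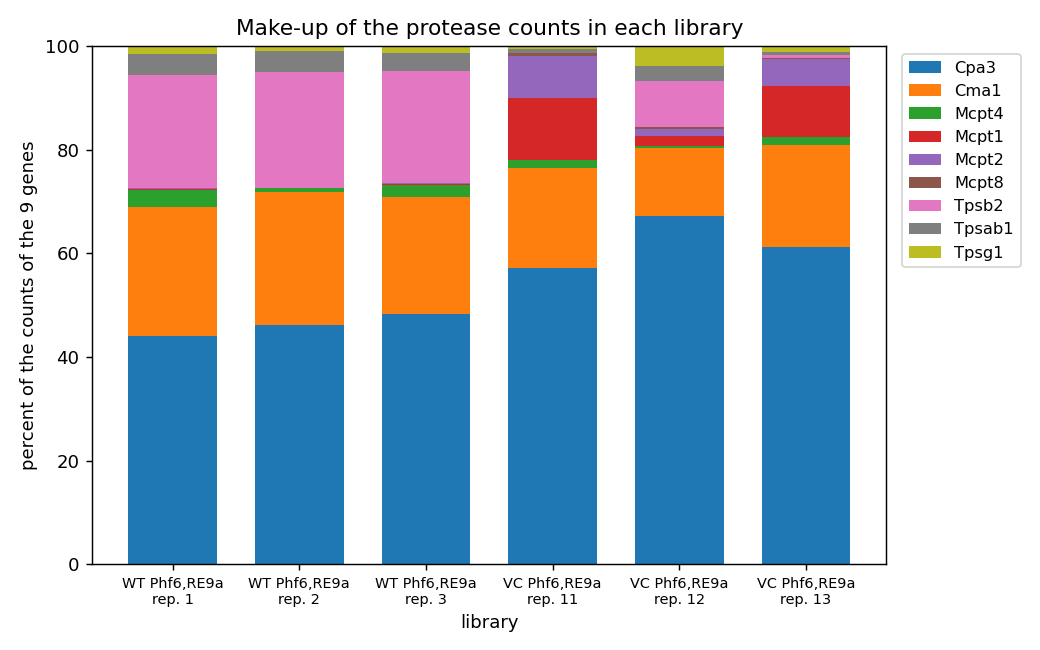
Percent of the summed counts of the 9 protease genes taken by each gene, 1 bar per library. The 3 *WT Phf6,RE9a* bars look alike, with 26.4% to 27.4% from the tryptases, while *VC Phf6,RE9a* replicates 11 and 13 hold 20.2% and 15.1% *Mcpt1* and *Mcpt2*, and replicate 12 holds 15.6% tryptases.

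Ratios within a library asked whether the genes moved by unequal amounts, since they need no scaling between libraries. Log2 count ratios (0.5 added to each count) of the other 8 genes to *Cpa3* were compared by exact two-sided permutation tests, whose smallest p was 0.1 (0.133 after Benjamini-Hochberg adjustment over the 8 ratios). The groups did not overlap for 6 ratios. Relative to *Cpa3*, the log2 ratio was lower in *VC Phf6,RE9a* cells by -2.13 for *Tpsab1*, -5.05 for *Tpsb2* and -0.93 for *Cma1*, and higher by 5.07 for *Mcpt1*, 5.02 for *Mcpt2* and 2.70 for *Mcpt8*. It overlapped for *Tpsg1* (-0.36, exact permutation p = 0.7) and *Mcpt4* (-1.20, exact permutation p = 0.4). *Cpa3* is the denominator of all 8 ratios and was itself lower (log2 fold change -4.62), so an unchanged gene would also give a higher ratio. The values for *Mcpt1* and *Mcpt2* thus mostly restate the difference of *Cpa3*. How many of all genes would not overlap in such a ratio was not computed. At this number of libraries none of the 8 differences can pass 0.05. Single libraries set much of their size. Without *VC Phf6,RE9a* replicate 12 the differences were -2.72 for *Tpsab1*, -6.65 for *Tpsb2*, -0.68 for *Cma1*, 6.002 for *Mcpt1* and 5.78 for *Mcpt2*, and for *Tpsb2* it was -3.88 without replicate 11. Without *WT Phf6,RE9a* replicate 2 they were 4.12 for *Mcpt1* and 4.26 for *Mcpt2*, and that of *Mcpt4* ran from -1.93 without this library to -0.50 without replicate 12. The difference of *Mcpt8* stayed between 2.32 and 3.06 with any library left out.

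Ratios between related genes were also read within each library. These pairs were chosen after their values were seen, and their ratios are given as a description. The log2 ratio of *Mcpt2* to *Mcpt1* was -0.55 ± 0.36 with *Phf6* intact and -0.60 ± 0.33 with *Phf6* deleted (SD, n = 3), and this was the only one of 5 such pairs whose groups overlapped. The log2 ratio of *Mcpt4* to *Mcpt1* went from 3.63 ± 0.46 to -2.65 ± 0.44, so *Mcpt4* was the higher of the pair in each *WT Phf6,RE9a* library and the lower in each *VC Phf6,RE9a* library. For *Tpsb2* to *Tpsab1* the log2 ratio was 2.50 ± 0.12 in *WT Phf6,RE9a* libraries and ranged from -2.24 to 1.58 in *VC Phf6,RE9a* libraries. For *Tpsg1* to *Tpsab1* it went from -1.58 ± 0.40 to 0.19 ± 0.53, and the ratio of *Mcpt4* to *Mcpt2* changed as that of *Mcpt4* to *Mcpt1* did, from 4.17 ± 0.13 to -2.04 ± 0.39.

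**Figure D4:**
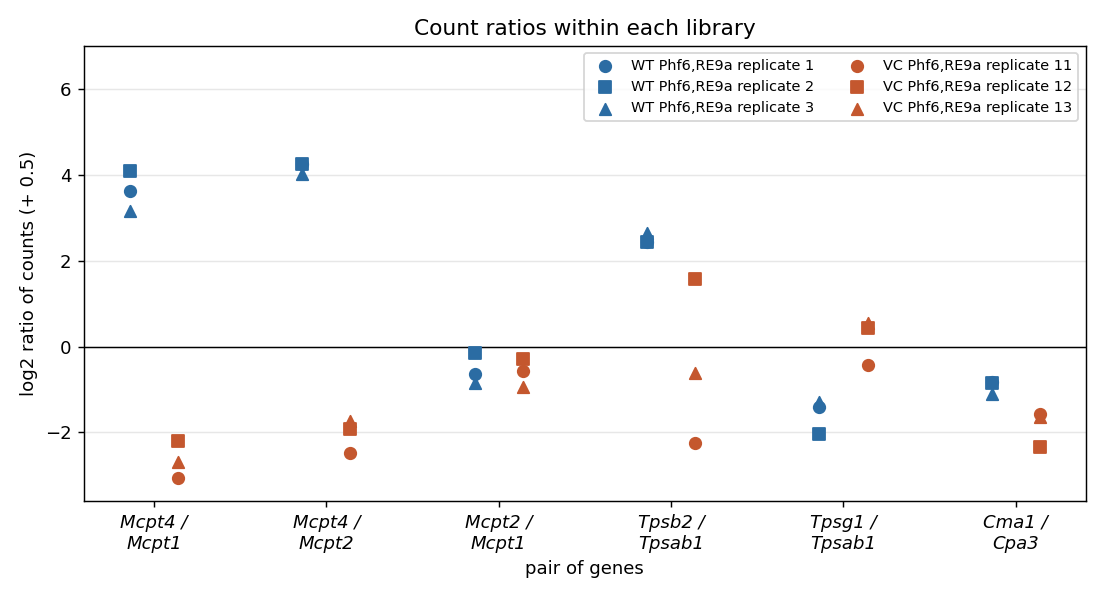
Log2 ratio of the counts of 2 protease genes within each library (0.5 added to each count), with *WT Phf6,RE9a* libraries in blue and *VC Phf6,RE9a* libraries in orange. *Mcpt4* to *Mcpt1* and *Mcpt4* to *Mcpt2* change sign between the groups, while *Mcpt2* to *Mcpt1* overlaps.

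*Mcpt1* and *Mcpt2*, which did not pass, and *Mcpt4*, which was lower, are close in sequence. Over their coding sequences *Mcpt1* and *Mcpt4* were 86.8% identical, *Mcpt1* and *Mcpt2* 81.3%, and *Mcpt2* and *Mcpt4* 79.4%, whereas *Cma1* and *Mcpt4*, which were both lower, were 66.9% identical. *Tpsab1* and *Tpsb2* were 75.4% identical. No stretch of 50 bases was shared between any pair of the 9 genes, and *Cpa3*, *Tpsab1*, *Tpsb2*, *Mcpt1*, *Mcpt2* and *Mcpt8* shared none with any other annotated transcript. How reads with several matches were counted is not given in the sources used here.

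Libraries of a group also ranked in different orders for different proteases. *Mcpt1*, *Mcpt2* and *Mcpt4* were highest in replicate 1 and lowest in replicate 2 of *WT Phf6,RE9a*, and highest in replicate 13 and lowest in replicate 12 of *VC Phf6,RE9a*. *Cpa3*, *Tpsab1* and *Tpsb2* were instead highest in replicates 2 and 12 and lowest in replicates 3 and 11. So within each group the β-chymase genes of the cluster shared one order, *Mcpt4* included, and *Cpa3* and these tryptases shared another. The remaining proteases matched neither order in full. *Cma1* was highest in replicates 2 and 13, and *Tpsg1* and *Mcpt8* were highest in replicates 1 and 12. With 3 libraries per group these orders are a description only.

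Other genes of the chymase cluster were read within 50000 bases of the proteases, a distance chosen after values were seen. Of the 7 tested genes there that are not among the 9, 6 were lower and 1 was higher. Over all genes tested the shares were 22.7% lower and 21.5% higher. *Cma2* had 151, 102 and 114 counts against 4, 6 and 7 (log2 fold change -4.53), and the pseudogene *Mcpt-ps1* had 2529, 1004 and 1394 against 10, 13 and 17 (-7.06). *Cma2* and *Mcpt-ps1* overlap on opposite strands, so reads in their overlap cannot be assigned to one of them. The predicted genes *Gm48925* and *Gm48934* were lower as well, from at most 25 counts to at most 2 in any library. They could be tested only through their *WT Phf6,RE9a* counts and so could be called only as lower, and *Gm48934* shares stretches with *Cma1*. Also lower were *Khnyn* (log2 fold change -1.11) and *Sdr39u1* (-1.25) at the edge of the cluster. The pseudogene *Gm5801* had 0, 3 and 3 counts against 9, 10 and 12, too few to be tested. *Ctsg*, which encodes the neutrophil protease cathepsin G and lies on the far side of *Mcpt8*, rose from 102, 88 and 139 to 479, 325 and 174 counts (log2 fold change 1.45, standard error 0.35, edgeR adjusted p = 0.0125). *Gzmb*, the granzyme B gene further along the cluster, had 11050, 2445 and 3080 counts against 26, 15 and 6 (log2 fold change -8.58, standard error 0.85, edgeR adjusted p = 0.000236). Of the list of 11 further genes of the chymase and granzyme locus, 10 were in the table and 3 were tested, of which *Cma2* and *Gzmb* were lower and *Ctsg* higher.

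**Figure D5:**
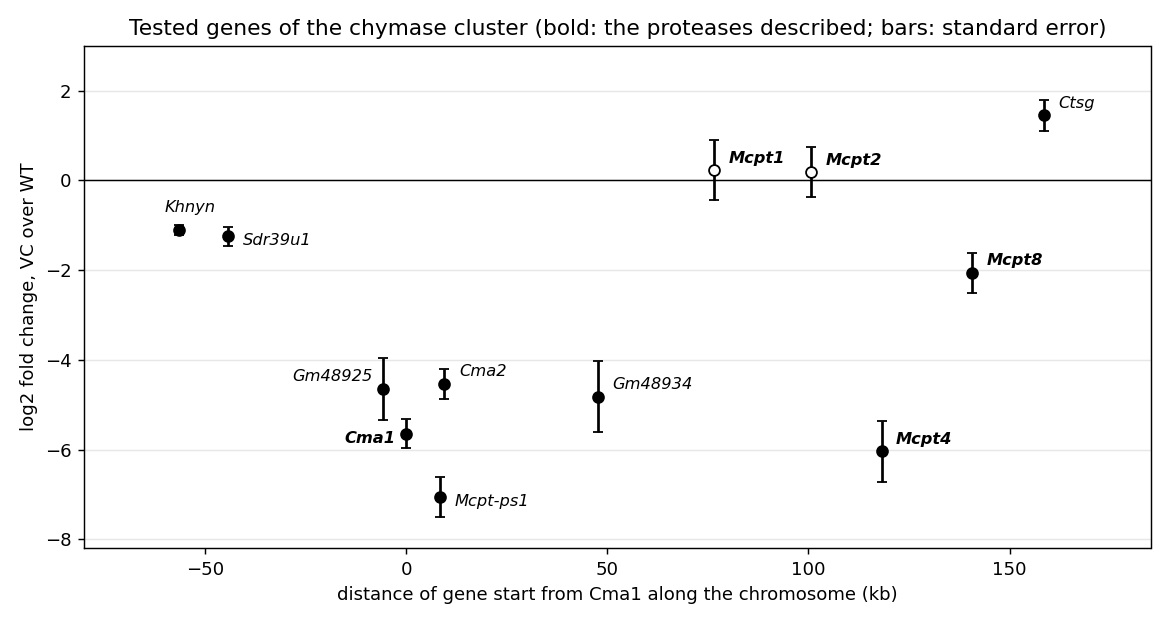
Log2 fold change (*VC Phf6,RE9a* over *WT Phf6,RE9a*, with standard error) of the tested genes of the chymase cluster against the distance of their start from *Cma1* in kb; filled points passed an adjusted p of 0.05 and the proteases described are in bold. *Mcpt1* and *Mcpt2*, near 0, lie between lower genes on both sides, and *Ctsg* at the far end is higher at 1.45.

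Near the tryptases, the basophil protease gene *Prss34* was the only one of 10 listed serine protease genes with enough counts to be tested. It had 242, 105 and 154 counts against 72, 89 and 24 (log2 fold change -1.56, standard error 0.48, edgeR adjusted p = 0.0322), again lower in each *VC Phf6,RE9a* library than in any *WT Phf6,RE9a* library. Next to *Cpa3*, the carboxypeptidase gene *Cpb1* had 65, 142 and 48 counts against 16, 31 and 35 (log2 fold change -1.79, edgeR adjusted p = 0.0242). Of 13 other metallocarboxypeptidase genes 3 were tested. *Cpb1* was lower, and *Cpd* (log2 fold change 0.91) and *Cpm* (3, 1 and 1 counts against 28, 27 and 16) were higher. Neutrophil serine proteases were higher. Of the 5 listed, 4 were tested and all 4 were higher, with log2 fold changes of 2.28 for *Elane*, neutrophil elastase, and 2.33 for *Prtn3*, proteinase 3 (median of the 4 genes 1.88).

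Genes for granule storage and protease activation gave mixed results. Of 19 tested of 20 listed genes 9 were lower, 3 were higher and 7 did not pass (median log2 fold change -0.30). These counts stand beside shares of 22.7% lower and 21.5% higher over all genes tested. *Hdc*, which makes histamine, went from 5973 ± 1853 to 2563 ± 104 CPM (SD, n = 3; log2 fold change -1.22), and *Srgn*, the serglycin core protein, from 1736 ± 360 to 1166 ± 75.0 CPM (SD, n = 3; log2 fold change -0.57). The vesicular monoamine transporter gene *Slc18a2* (-3.56) and the serine protease inhibitor gene *Serpinb1a* (-3.84) had the largest differences in the list. *Ctsc*, which encodes the activating protease cathepsin C, was higher (0.98, edgeR adjusted p = 0.0158); it was picked after its value was seen.

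Mast cell and basophil markers outside the 9 genes were lower for the most part. Some of these genes stand in more than one list, and of all genes tested 22.7% were lower and 21.5% higher. Of 14 tested of 16 listed mast cell markers 11 were lower and 1 was higher (median log2 fold change -1.75). *Il1rl1*, the IL-33 receptor gene, went from 4512 ± 1116 to 2282 ± 133 CPM (log2 fold change -0.98). *Mrgprb2*, a mast cell receptor gene, had 3592, 1852 and 2437 counts against 0, 6 and 8 (-9.22), and *Mrgprb1* had 118, 532 and 124 counts against 0 in all *VC Phf6,RE9a* libraries. *Ms4a2*, the IgE receptor β chain gene, did not pass (1180 ± 96.2 against 1076 ± 215 CPM, edgeR adjusted p = 0.519), and *Fcer1g*, its γ chain gene, was higher (1.99); both were picked after their values were seen. Of 10 basophil markers 6 were lower and 2 were higher (median log2 fold change -1.09). The protease gene *Prss34*, given above, is in this list and is one of the lower genes. *Fcer1a*, the IgE receptor α chain gene, had 12065, 8395 and 7528 counts against 92, 92 and 86 (-6.83), *Cd69* was lower (-4.86), and *Cd200r3* was slightly higher (0.42, edgeR adjusted p = 0.0395).

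Transcription factor genes of these lineages gave mixed results. Of 15 tested 7 were lower and 4 higher (median log2 fold change -0.27), while 22.7% of all genes tested were lower and 21.5% higher. *Gata2* went from 1401 ± 225 to 859 ± 122 CPM (SD, n = 3; log2 fold change -0.71, edgeR adjusted p = 0.0087), and *Runx1* did not pass (-0.27, edgeR adjusted p = 0.0547). Reads of *Runx1* and of the RE9a transgene, which contains part of RUNX1, were not separated here. The largest differences were those of *Hes1* (-2.87), a Notch target gene, and *Bhlhe40* (-2.00), a basic helix-loop-helix factor gene.

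Markers of other cell types also moved with the group, and their part in the protease results was not tested. The summed level of 6 B cell markers was 2.60 to 7.87 CPM in *WT Phf6,RE9a* and 25.3 to 70.7 CPM in *VC Phf6,RE9a* libraries, and all 5 tested were higher. All 7 erythroid markers were higher (1421 to 2166 against 4646 to 5320 CPM), as were 5 of 8 eosinophil markers (55.1 to 76.1 against 131 to 180 CPM) and both tested of 7 NK cell markers (1.63 to 3.38 against 4.75 to 9.45 CPM). Of 8 T cell markers 2 were tested, 1 lower and 1 higher (9.22 to 13.4 against 12.5 to 15.4 CPM), and none of 7 macrophage markers passed (17.8 to 30.6 against 29.4 to 38.1 CPM).

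Genes whose log2 CPM over the 6 libraries was most like that of *Cpa3* were sought among 9189 genes at or above a mean of 3 on that scale. They were *Axin2* (log2 fold change -1.05), *Appl1* (-1.29) and *Prrc1* (-1.49), against -4.62 for *Cpa3*. Those most like *Mcpt8* (-2.06) were *Ankrd28* (-0.43), *Tln1* (-0.25, which did not pass) and *Gnb1* (-0.54), all with far smaller differences. Likeness was the Pearson correlation across the 6 libraries, which fall into the 2 groups, so it mostly restates that the groups differ. It takes no account of the size of a difference.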

How the data were processed

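RNA was sequenced as 150 bp paired reads from TruSeq libraries. The authors deposited unnormalized read counts per Ensembl gene and FPKM values, which scale those counts by gene length and library size. The deposited comparison columns hold mean normalized counts (signal), log2 fold changes, p-values and other annotations; none of the comparison values was used. The submitters' processing notes name Bowtie 0.12.0 and mm8, but of 54409 identifiers found in GENCODE M21 98.3% had the deposited start and end there, so coordinates are on GRCm38 as deposited. The counter and strandedness are not given in the sources used here.

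In R 4.3.3, 14169 genes passed filterByExpr of edgeR 4.0.16 and were compared after TMM scaling by the quasi-likelihood test with Benjamini-Hochberg adjustment. Standard errors were derived from the F statistic. CPM used TMM-scaled library sizes, and shares used total counts. Alternatives were DESeq2 1.42.0, RLE scaling, dropping the filter, a stricter minimum of 10 counts per library, limma 3.58.1 on log2(FPKM + 1) and log2(FPKM + 0.1), and leaving out each library. No pair of libraries of one group agreed within sampling noise. Named genes were the proteases, *Phf6*, the tested genes of both locus lists, in each other list the 2 of highest level and the 2 of largest called change, and the 3 most like *Cpa3* and *Mcpt8*. The proteases and lists were chosen with earlier results of these data known. Figures used matplotlib 3.10.9 in Python 3.11.15.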

Additional observations from a re-analysis of the deposited data

How the results depend on the processing

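The 7 lower proteases were called lower under every alternative that gave a value. With at least 10 counts in every library *Tpsb2* was not tested, which left 6. *Mcpt1* and *Mcpt2* passed under none, and their sign turned without *WT Phf6,RE9a* replicate 2 (-0.23 and -0.23) and without *VC Phf6,RE9a* replicate 13 (-0.19 and -0.04), within leave-one-out ranges that reached 0.81 for *Mcpt1* and 0.80 for *Mcpt2*. With each library left out, 2511 to 3338 of all genes were lower and 2179 to 3132 higher. The log2 difference in the ratio of *Tpsg1* to *Cpa3* was -1.08 to 0.20 with a library left out, positive without *VC Phf6,RE9a* replicate 11. Requiring 10 counts in every library removed genes and moved the list medians to 1.46 (chymase and granzyme locus), -0.43 (metallocarboxypeptidases), -0.82 (T cell), -1.34 (mast cell), 3.35 (B cell) and 0.95 (eosinophil markers). With limma on log2(FPKM + 1), whose pseudocount shrinks low genes, they were -2.63, 0.27, 0.41, -1.55, 1.49 and 1.24 in the same order, and 0.52 for NK cell markers. The median of the basophil markers, -1.09 in the main fit, was -0.61 with the stricter minimum and -0.53 with this limma fit. With each library left out, the median was -1.98 to -1.65 for mast cell and 1.68 to 2.20 for erythroid markers. No paired analysis was possible because the groups share no replicate numbers (1 to 3 and 11 to 13). Counts were lowest for *Tpsb2*, at 7 in *VC Phf6,RE9a* replicate 11, and for *Mcpt8*, at 18 to 37 in the libraries of that group, and 3 libraries per group limit every permutation test to p = 0.1.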
